A study of Mus musculus with 14 samples.

Results

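The 10 genes described here carry, take up, store and export iron in brain cells, or regulate those steps: Trf, Tfrc, Slc11a2, Fth1, Ftl1, Slc40a1, Cp, Heph, Aco1 and Ireb2. The list of symbols was drawn up with earlier results of these data known, and each symbol matched 1 row among the 46983 genes of both deposited tables. All 10 had reads in both tables and all 10 were tested in both. RNA-seq was done on mouse corpus callosum (4 libraries labelled WT, 4 labelled Qk-KO) and on oligodendrocytes differentiated from neural stem cells (3 and 3). Qk encodes quaking, an RNA-binding protein of myelinating glia. The callosum came from mice of an FvB/C57BL6 hybrid strain, labelled 8-week-old, that carried Plp-CreERT2, a tamoxifen-inducible Cre under the promoter of a myelin gene. Animals labelled Qk-KO were QKLoxP/LoxP and those labelled WT were QKLoxP/+, so the controls carry the Cre and 1 floxed Qk copy. Both genotypes received tamoxifen, and the tissue was taken 4 days afterwards. The cultures, of the same hybrid strain, came from neural stem cells at passage 7, 12 or 13, with 1 library of each genotype per passage. Differentiation used IGF-1 at 100 ng/ml together with the thyroid hormone T3 at 50 ng/ml. In the sample names, 40HT stands with each Qk-KO culture and EtOH with each WT culture, so these agents and the genotype cannot be told apart.

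Iron travels in extracellular fluid bound to transferrin, enters cells through the transferrin receptor, and leaves the endosome through a divalent metal transporter. Inside the cell it is used for heme and iron-sulfur proteins or stored in ferritin, a hollow shell of heavy and light chains. Ferroportin exports it, with help from copper-containing ferroxidases. Oligodendrocytes are known as the most iron-rich cells of the brain, and enzymes of myelin lipid synthesis need the metal. The iron regulatory proteins IRP1 and IRP2 bind a short hairpin, the iron-responsive element, when iron is scarce. Bound in a 5′ UTR the proteins block translation, and bound in a 3′ UTR they stabilise the mRNA.

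These hairpins are shown because they set some of the 10 genes apart at the sequence level. The UTRs of GENCODE M21 transcripts (GRCm38, the build called mm10) were searched on the transcript strand. The pattern was a C, 5 bases, the loop CAGTGN with a last base other than G, and 5 bases that pair with the first 5, with at most 1 unpaired base on the 3′ side. G with T was also counted as a pair. Capitals mark the 6 loop bases.
Fth1, 5′ UTR, chr19:9982731-9982760, plus strand: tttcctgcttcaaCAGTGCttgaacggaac
Ftl1, 5′ UTR, chr7:45459779-45459808, minus strand: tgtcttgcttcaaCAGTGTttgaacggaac
Slc40a1, 5′ UTR, chr1:45925465-45925494, minus strand: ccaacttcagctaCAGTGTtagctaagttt
Slc11a2, 3′ UTR, chr15:100395153-100395182, minus strand: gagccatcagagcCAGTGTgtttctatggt
Tfrc, 3′ UTR, chr16:32631218-32631247, plus strand: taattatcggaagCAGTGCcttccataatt
Tfrc, 3′ UTR, chr16:32631597-32631626, plus strand: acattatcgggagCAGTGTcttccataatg
Tfrc, 3′ UTR, chr16:32631662-32631691, plus strand: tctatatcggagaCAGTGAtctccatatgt
Tfrc, 3′ UTR, chr16:32631709-32631738, plus strand: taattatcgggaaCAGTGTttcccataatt

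The pattern was found in 5 of the 10 genes, in 8 places, of which 4 lie in Tfrc. The background was the genes of this series with an annotated UTR on a protein-coding transcript of GENCODE M21. Among them the pattern was found in a 5′ UTR of 0.281% (58 of 20624) and in a 3′ UTR of 1.20% (257 of 21359). The Slc11a2 match needs the unpaired base and lies in the transcript Slc11a2-205, and the gene-level counts do not separate transcripts with and without it. No match was found in Trf, Cp, Heph, Aco1 or Ireb2, which says only that these letters are not in their annotated UTRs. The quaking core ACTAAC or ACTAAT with TAAC or TAAT within 20 bases was searched in each gene's longest 3′ UTR. It occurred in 13.2% of the 21359 genes with a 3′ UTR and in 1 of the 10, Heph. The Heph match lies in the transcript Heph-202, while the annotated gene runs on to chrX:96574485. The gene-level counts do not separate the transcripts of Heph.
Heph, 3′ UTR, chrX:96530698-96530710, plus strand, with both parts in capitals: ACTAATaagTAAC

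The deposited columns for single libraries hold the means of a fitted model. All libraries of a genotype therefore share 1 fitted value per gene once scaled, and the spread between animals or cultures enters only through the deposited standard errors. Levels are given as fitted CPM (fitted counts scaled by the sum over all genes in a library), 1 value for each genotype in each system. Ratios of fitted CPM exceed the deposited change by a constant 0.02 log2 units in callosum and 0.08 in culture. Fitted counts summed to 15048646 to 27666519 per callosum library and 38325833 to 48912999 per culture library. The labels do not say whether the 4 callosum libraries of a genotype are 4 animals. Nor do they say whether the culture libraries come from separate stem cell lines, and all culture sample names share the part 1T. The errors thus measure the spread between libraries. Qk itself was not lower in either system (log2 change 0.32 ± 0.12 SE, adjusted p = 0.162, in callosum, and 0.66 ± 0.14, adjusted p = 4.19e-05, in culture, authors' deposited table), but gene-level reads outside a floxed segment check neither the deletion nor the labels.

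Ferritin was the most abundant product of the group. In callosum labelled WT, Fth1 stood at 727 CPM and Ftl1 at 115 CPM, together 67.0% of the summed level of the 10 genes. In culture labelled WT they stood at 2048 and 790 CPM, 88.2% of the sum. Per kilobase of merged exon, the callosum order was Fth1 (210 fitted CPM per kb), Ftl1 (86.1), Tfrc (26.1), Trf (10.9), Aco1 (9.63), Ireb2 (8.44), Slc11a2 (6.66), Cp (2.70), Heph (1.97) and Slc40a1 (1.24). In culture labelled WT, Fth1 (590.3 fitted CPM per kb) and Ftl1 (589.8) led again, and Trf came last at 0.207. Fitted means carry no spread, so neighbours in these orders cannot be told apart or ranked by a test. With the length of the first-named transcript in place of merged exons, a choice made after seeing the data, Fth1 reached 782 and Ftl1 119 fitted CPM per kb in callosum, and the places of Aco1, Slc11a2, Heph and Slc40a1 changed there. In culture labelled WT the same length gave 2204 for Fth1 and 817 for Ftl1, in place of nearly equal levels, and moved the places of Slc11a2, Ireb2, Cp and Heph.

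**Figure D1:**
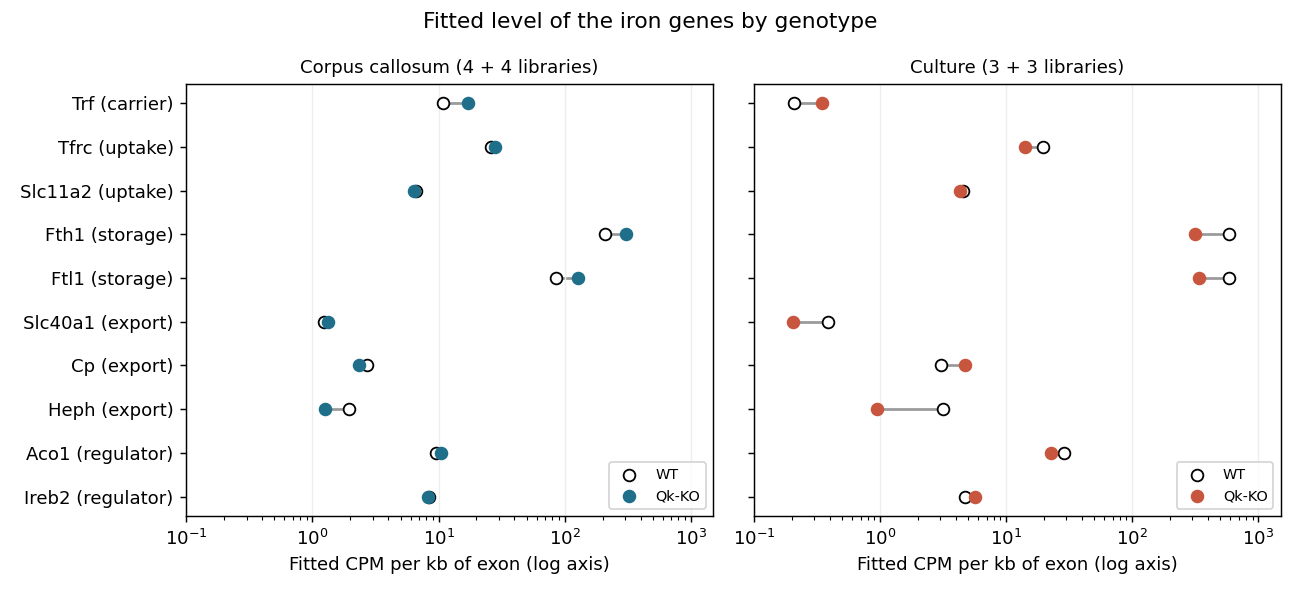
Fitted CPM per kilobase of merged exon (log axis) for the 10 genes, with open circles for WT and filled circles for Qk-KO; each circle is 1 fitted value per genotype, without error. Fth1 and Ftl1 stand right of all other genes in both systems, and Trf stands at 10.9 in callosum labelled WT against 0.207 in culture labelled WT, from tables that were normalized separately.

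In callosum labelled Qk-KO, the ferritin light chain and transferrin were higher, and the other 8 genes did not pass. Of the 10 genes, 2 rose and none fell at an adjusted p under 0.05, where 2.32% of the 19935 tested genes passed, 2.09% higher and 0.231% lower. At an unadjusted p under 0.05, 3 were higher and 1 lower in the authors' deposited DESeq2 test. The median log2 change of the 10 was 0.07, against -0.01 over all tested genes. In culture labelled Qk-KO, 6 of the 10 fell and none rose, where 28.6% of the 17503 tested genes passed, 15.2% lower and 13.3% higher. At an unadjusted p under 0.05 the culture counts were the same, 6 lower and none higher. The median there was -0.48, against 0.01 over all tested genes. The summed fitted level of the 10 genes went from 1258 to 1682 CPM in callosum and from 3219 to 1874 CPM in culture, mostly through ferritin. These calls read the deposited score against a normal distribution. With a t distribution on 6 and 4 residual degrees of freedom, none of the 10 passed in either system, with the adjusted p of the called genes from 0.563 to 0.663 in callosum and from 0.0597 to 0.145 in culture. Of all tested genes, 0.0401% passed in callosum with that distribution, all of them higher, and 0% in culture. The smallest adjusted p of any culture gene was 0.057 with the t distribution, so failing it there does not set the 10 genes apart.

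**Figure D2:**
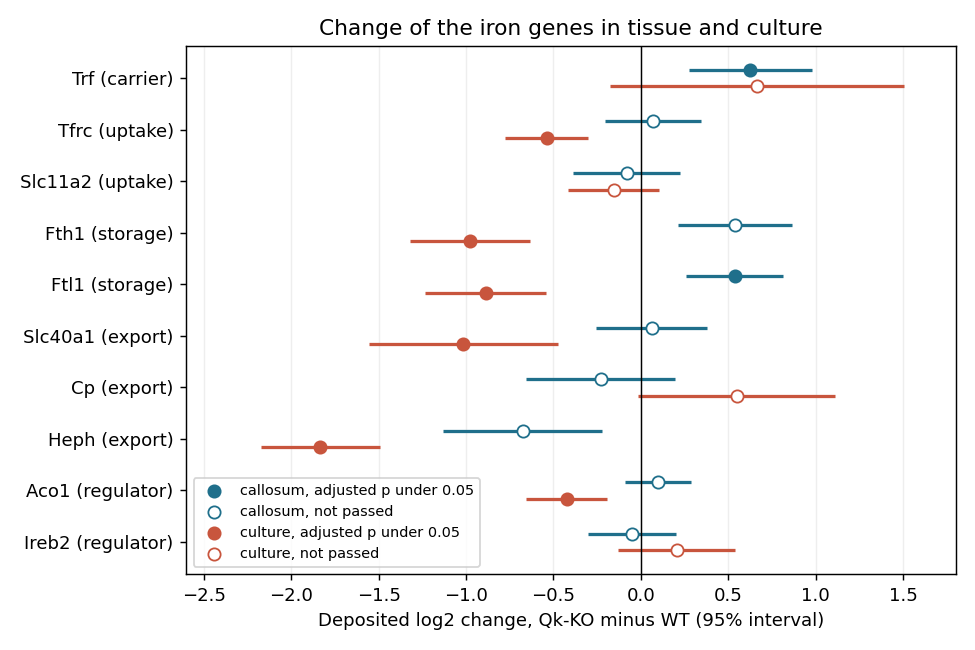
Deposited log2 change, Qk-KO minus WT, of the 10 genes with 95% intervals, in callosum (blue) and culture (red); filled points passed an adjusted p under 0.05. In callosum Trf and Ftl1 are filled and lie right of 0, and in culture the 6 filled points lie left of 0, from Aco1 at -0.42 to Heph at -1.83.

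Trf encodes transferrin, the iron carrier that oligodendrocytes and the choroid plexus are known to make. All 4 callosum libraries labelled WT share a fitted level of 36.3 CPM and all 4 labelled Qk-KO share 57.0 CPM. Trf rose 1.54-fold (log2 0.63 ± 0.18 SE, n = 4 and 4, adjusted p = 0.0254, authors' deposited DESeq2 table), the 365th strongest rise by score. The labelled tissue held its defining markers. Of 22 oligodendrocyte markers, 5 rose and none fell, where 2.09% of all tested callosum genes were higher and 0.231% lower. The summed level of these markers went from 8751 to 9497 CPM, with none at 0. Neuron markers were also abundant in this tissue. Of 12, none passed, and their sum was 7272 CPM in WT and 6812 CPM in Qk-KO. Of 12 choroid plexus markers, none rose and 1 fell, with 10 lower at an unadjusted p under 0.05 (authors' deposited DESeq2 test) and a median log2 change of -0.81. Their sum went from 2839 to 2011 CPM, with none at 0. That sum includes Tmem72, named after its values were seen, which stood at 742 CPM in WT and 795 CPM in Qk-KO callosum and at 136 CPM in WT culture. The part of oligodendrocytes, choroid plexus cells or neurons in the Trf value was not tested. In bulk tissue, more cells of a type cannot be told apart from more RNA per cell. In culture, Trf had the lowest mean normalized count of the 10 genes, 39.7. WT stood at 0.687 CPM and Qk-KO at 1.15 CPM, and the change did not pass (log2 0.67 ± 0.43, a 95% interval of 0.886 to 2.84 in fold, adjusted p = 0.26, authors' deposited DESeq2 table).

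The Trf level needs a caution on counting. In GENCODE M21, 2108 of the 3320 merged exon bases of Trf (63.5%) are shared with Gm20425, a gene model on the same strand that is listed at 0 in both tables. Counting that leaves out reads on more than 1 gene would drop reads over the shared part, and no source used here gives the counting settings. Over the 1212 unshared bases alone, the fitted level of Trf would be 30.0 CPM per kb in callosum labelled WT and 47.0 in Qk-KO.

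Tfrc encodes the transferrin receptor, which brings iron-loaded transferrin into the cell. In callosum, WT stood at 161 CPM and Qk-KO at 172 CPM, and the change did not pass (log2 0.07 ± 0.14, 95% interval -0.21 to 0.34, adjusted p = 0.9997, authors' deposited DESeq2 table). In culture it went from 121 CPM in the 3 WT libraries to 87.8 CPM in the 3 Qk-KO libraries. Tfrc thus fell 1.45-fold (log2 -0.54 ± 0.12, adjusted p = 9.58e-05, authors' deposited DESeq2 table). Slc11a2 encodes DMT1, which moves ferrous iron out of the endosome. WT and Qk-KO stood at 42.3 and 40.6 CPM in callosum, and at 28.8 and 27.2 CPM in culture. Neither change passed, with 95% intervals of -0.39 to 0.22 in callosum and -0.42 to 0.10 in culture (log2, authors' deposited table). Both intervals include 0.

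Both ferritin chains fell in culture, while in callosum the light chain rose and the heavy chain had a value of like size that just missed the threshold. Ftl1 encodes the light chain, which aids the mineral core. The callosum libraries labelled WT share 115 CPM and those labelled Qk-KO share 170 CPM. Ftl1 rose 1.45-fold there (log2 0.54 ± 0.14, n = 4 and 4, adjusted p = 0.0102, authors' deposited DESeq2 table). Fth1 encodes the heavy chain, which oxidises iron as it enters the shell. It stood at 727 CPM in WT and 1073 CPM in Qk-KO callosum, a fold of 1.45 that did not pass (log2 0.54 ± 0.17, 95% interval 0.21 to 0.87, adjusted p = 0.0539, authors' deposited DESeq2 table). Fth1 lay next to the threshold: its adjusted p was 0.0348 with library-size scaling, 0.047 with centring on the median gene and 0.0447 among genes with a mean count of at least 50. It was 0.0873 without a filter on low means and 0.761 with the t distribution.

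In culture, Fth1 went from 2048 CPM in the WT libraries to 1098 CPM in the Qk-KO libraries. It fell 1.97-fold (log2 -0.98 ± 0.18, n = 3 and 3, adjusted p = 4.38e-07, authors' deposited DESeq2 table). Ftl1 went from 790 to 451 CPM and fell 1.85-fold (log2 -0.89 ± 0.18, adjusted p = 6.89e-06, authors' deposited DESeq2 table). In callosum, ferritin sat beside a large rise of microglia and macrophage markers, cells that also store iron. Of 22 such markers, 16 rose and none fell, where 2.09% of all tested callosum genes were higher and 0.231% lower. Their summed level went from 521 to 1227 CPM with none at 0. Of 12 astrocyte markers in callosum, 2 rose and none fell, and their sum went from 5094 to 6244 CPM with none at 0. Gfap, an intermediate filament of astrocytes and 1 of the 2 that rose, went from 228 to 965 CPM (adjusted p = 2.30e-24, authors' deposited DESeq2 table; named after its value was seen). Slc1a2 and Aldoc, with higher mean counts than Gfap, did not pass. Slc1a2 stood at 2568 CPM in WT and 2798 CPM in Qk-KO, and Aldoc at 796 and 794 CPM. Of the 12 changes, 8 lay above 0 and 4 below, with a median of 0.10 log2 units. Microglia markers were low in culture: 7 of the 22 markers, among them C1qa, C1qb, C1qc, Trem2 and Itgam, were at 0, and the sum was 25.2 CPM in WT and 16.1 in Qk-KO. The labelled cell type was present, with all 22 oligodendrocyte markers detected. Of these, 4 rose and 5 fell, where 13.3% of all tested culture genes were higher and 15.2% lower. The sum of these markers was 6733 CPM in WT and 6522 in Qk-KO culture. Astrocyte markers stood beside the culture fall. Of 12, 9 fell and none rose, with a sum of 13980 CPM in WT and 4296 CPM in Qk-KO and none at 0. Of 11 tested neuron markers in culture, 7 rose and none fell, with a sum of 756 CPM in WT and 1772 CPM in Qk-KO. The part of microglia and astrocytes in the callosum values was not tested, nor was that of astrocytes and neurons in the culture values of ferritin and of the other 4 genes that fell.

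Ferritin has processed copies in the genome, and reads could be split among them. The copies that the tables list were small beside the genes. Gm10116, named Ftl1-ps1 in GENCODE M21, had a mean normalized count of 49.7 in callosum and 217 in culture, against 2885 and 27270 for Ftl1. Fth-ps2 had 30.3 and 5.04, against 18208 and 69189 for Fth1. The mitochondrial ferritin gene Ftmt was at 0 in both tables.

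The export genes did not move as a group. Slc40a1 encodes ferroportin, the iron exporter. In callosum, WT stood at 11.2 CPM and Qk-KO at 11.9 CPM, without a call (log2 0.06 ± 0.16, 95% interval -0.25 to 0.38, authors' deposited table). In culture it went from 3.49 to 1.82 CPM and fell 2.02-fold (log2 -1.02 ± 0.28, adjusted p = 0.00153, authors' deposited DESeq2 table). At a mean normalized count of 117, Slc40a1 had the widest error of the 6 genes that fell.

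Heph encodes hephaestin, a membrane ferroxidase that oligodendrocytes are known to express. The 3 culture libraries labelled WT share a fitted level of 24.3 CPM and the 3 labelled Qk-KO share 7.19 CPM. Heph fell 3.57-fold (log2 -1.83 ± 0.17, adjusted p = 6.55e-24, authors' deposited DESeq2 table), and 85 of the 17503 tested genes had a score further below 0. In callosum, Heph stood at 15.1 CPM in WT and 9.57 CPM in Qk-KO. That change did not pass (log2 -0.68 ± 0.23, 95% interval -1.13 to -0.22, unadjusted p = 0.00336, adjusted p = 0.116, authors' deposited DESeq2 table). Heph was the only 1 of the 10 genes below 0 at an unadjusted p under 0.05 in both tables. Its exons share 29 bases with Hsf3, a gene on the opposite strand with a mean normalized count of 11.5 in culture, against 699 for Heph.

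Cp encodes ceruloplasmin, the ferroxidase that astrocytes are known to carry on their surface. In callosum, WT stood at 25.9 CPM and Qk-KO at 22.4 CPM, without a call (log2 -0.23 ± 0.22, 95% interval -0.65 to 0.20, adjusted p = 0.9997, authors' deposited DESeq2 table). In culture it stood at 29.1 CPM in WT and 45.0 CPM in Qk-KO, also without a call (log2 0.55 ± 0.29, 95% interval -0.01 to 1.11, adjusted p = 0.146, authors' deposited DESeq2 table). Its culture value lay above 0 while those of Heph and Slc40a1 lay below 0.

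Aco1 encodes IRP1, which is a cytosolic aconitase when it holds an iron-sulfur cluster and an RNA-binding protein when it does not. In culture Aco1 went from 129 to 102 CPM and fell 1.34-fold (log2 -0.42 ± 0.12, adjusted p = 0.00192, authors' deposited DESeq2 table), the smallest of the 6 falls. In callosum it stood at 43.3 CPM in WT and 47.1 CPM in Qk-KO, without a call (95% interval -0.09 to 0.29 log2 units, authors' deposited table). Ireb2 encodes IRP2, which is removed by proteasomal degradation when iron is plentiful. It stood at 80.0 and 78.6 CPM in callosum and at 44.5 and 54.1 CPM in culture, in WT and Qk-KO. Neither change of Ireb2 passed, with 95% intervals of -0.30 to 0.20 in callosum and -0.13 to 0.54 in culture (log2, authors' deposited table).

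Read by the hairpins printed above, all 3 genes with the pattern in a 5′ UTR (Fth1, Ftl1 and Slc40a1) fell in culture, with a median of -0.98. Of the 2 genes with it in a 3′ UTR, Tfrc fell and Slc11a2 did not pass, with a median of -0.35. Of the 5 genes without a match, Heph and Aco1 fell, and the median of the 5 was 0.20. Over all tested genes in culture, 15.2% were lower. In callosum, 1 of the 5 genes with a match rose (Ftl1) and 1 of the 5 without (Trf), where 2.09% of all tested genes were higher. These groups are too small for a test, and mRNA levels do not measure translation, which the 5′ hairpins regulate.

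The change of 6 of the 10 genes differed between the systems, by a z test on the deposited changes and errors of both tables, adjusted over the 16601 genes tested in both. The change of all 6 was lower in culture. The controls of the systems were unlike: QKLoxP/+ animals given tamoxifen in callosum, and libraries named EtOH in culture. Of all genes tested, 21.5% passed, 11.7% lower and 9.84% higher, and none of the 10 was higher. At an unadjusted p under 0.05, 6 were lower and 1, Cp, was higher. The difference for Fth1 was -1.52 ± 0.24 log2 units (adjusted p = 1.62e-08) and that for Ftl1 was -1.42 ± 0.23 (adjusted p = 1.5e-08). Heph differed by -1.16 ± 0.29 (adjusted p = 7.46e-04) although both of its values lie below 0. Slc40a1 differed by -1.08 ± 0.32, Tfrc by -0.61 ± 0.19 and Aco1 by -0.52 ± 0.15, with adjusted p from 0.00472 to 0.00777. For Trf the difference was 0.04 with a 95% interval of -0.87 to 0.95, so its culture change is too imprecise to set against the tissue. Slc11a2 (-0.07, interval -0.47 to 0.33), Ireb2 (0.25, -0.16 to 0.67) and Cp (0.78, 0.07 to 1.48, adjusted p = 0.111) did not pass. With a t distribution on 10 degrees of freedom, Fth1, Ftl1 and Heph passed and Tfrc, Slc40a1 and Aco1 did not, where 11.9% of the 16601 genes passed, 7.2% lower and 4.67% higher.

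**Figure D3:**
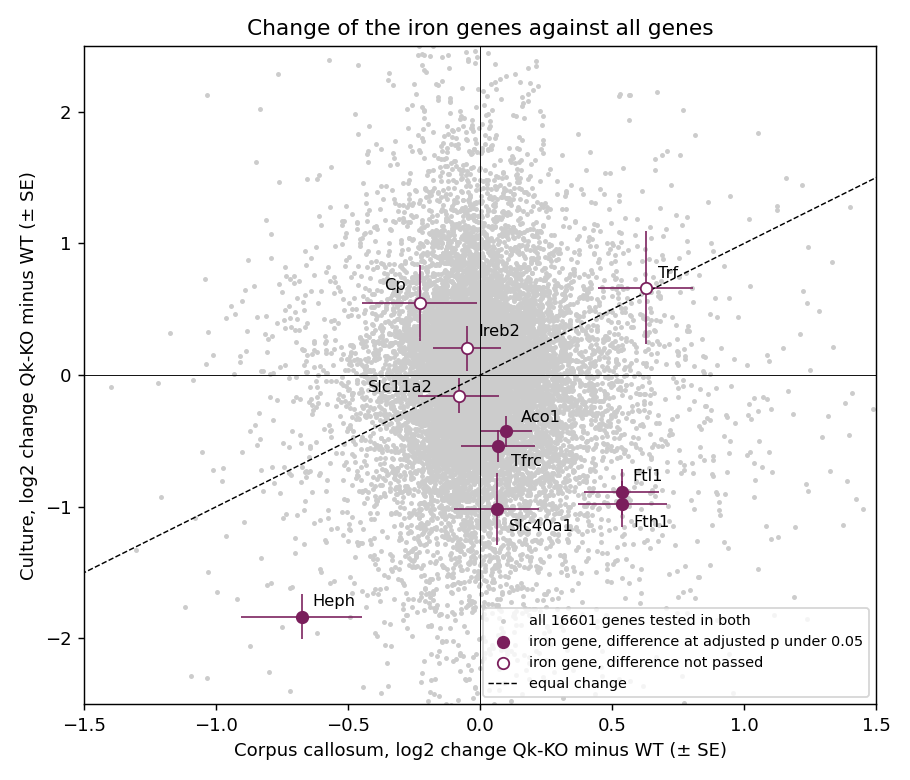
Deposited log2 change in callosum (horizontal axis) against culture (vertical axis), Qk-KO minus WT, with grey points for the genes tested in both tables and labelled points with ± SE bars for the 10 iron genes; 166 of the 16601 genes lie outside the plotted range. Fth1 and Ftl1 lie right of 0 and below 0, Heph lies below 0 on both axes, and the dashed line marks equal change.

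Other genes of iron handling were read from 6 lists with 105 genes in the tables. In callosum, 2 of the 96 tested rose and none fell (2.08% higher, against 2.09% of all tested genes). At an unadjusted p under 0.05, 6 were higher and 5 lower in the authors' deposited DESeq2 test. Slc11a1, the metal transporter of the phagosome, rose from 2.46 to 10.1 CPM (log2 2.01 ± 0.26, adjusted p = 7.60e-12, authors' deposited DESeq2 table). Cd63, a tetraspanin of late endosomes and secreted vesicles, rose from 24.6 to 38.5 CPM (log2 0.62 ± 0.15, adjusted p = 0.00407, authors' deposited DESeq2 table). No gene of the lists for iron regulators (13 tested), heme (20), iron-sulfur cluster assembly (27) or ferroptosis (13) passed there, and at an unadjusted p under 0.05 these had 1, 2, 0 and 0 higher and 0, 0, 2 and 1 lower.

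In culture, 35 of the 94 tested fell and 6 rose (37.2% lower and 6.38% higher, against 15.2% and 13.3% of all tested genes). Of 20 uptake and transport genes, 6 fell and 1 rose. Cybrd1, a ferric reductase, fell by 0.88 ± 0.16, Slc39a14, which imports iron not bound to transferrin, by 0.79 ± 0.17, and Steap2, a metalloreductase, by 0.87 ± 0.23 log2 units (authors' deposited table). The 1 that rose was Tfr2, a second transferrin receptor, named here after its value was seen, with a mean normalized count of 8.524 (log2 1.94 ± 0.69, adjusted p = 0.0211, authors' deposited DESeq2 table). That mean lies barely above the lowest with an adjusted p in culture, 8.522. Tfr2 stood at 0.0710 CPM in WT and 0.287 CPM in Qk-KO, under the 1 CPM set for naming list genes. Of 4 tested storage and export genes, 3 fell and none rose. They were Ncoa4, the receptor that delivers ferritin to the lysosome (from 86.5 to 56.4 CPM, log2 -0.69 ± 0.13), Cd63 (-1.27 ± 0.16) and the prion protein gene Prnp (-1.02 ± 0.14, all from the authors' deposited table).

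Of 11 regulators, 4 fell and 1 rose. Epas1, the hypoxia-inducible factor HIF-2 alpha, fell by 2.05 ± 0.21, Nfe2l2, the oxidative stress factor NRF2, by 1.63 ± 0.15, and Hfe, the hemochromatosis gene, by 1.25 ± 0.24 log2 units (authors' deposited table). Fbxl5, the ligase subunit that marks IRP2 for degradation, rose by 0.44 ± 0.14 (adjusted p = 0.00811, authors' deposited DESeq2 table). Of 20 heme genes, 6 fell and 2 rose. The biliverdin reductase gene Blvrb fell by 2.02 ± 0.19, Hmox1, which frees iron from heme, by 0.99 ± 0.22 and Alas1, the entry enzyme of heme synthesis, by 0.61 ± 0.13, while Cpox rose by 0.69 ± 0.20 and Pgrmc1 by 0.43 ± 0.17 (authors' deposited table).

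Of 27 iron-sulfur cluster genes, 9 fell and 1 rose. Nfs1, the desulfurase that supplies the sulfur, fell by 0.90 ± 0.16, the chaperone gene Hspa9 by 0.55 ± 0.13 and Narfl by 0.69 ± 0.17, while Fam96a rose by 0.35 ± 0.14 with an adjusted p of 0.0491 (authors' deposited DESeq2 table). Of 12 ferroptosis genes, 7 fell and 1 rose. The glutathione synthesis genes Gclm (from 145 to 54.3 CPM), Gclc (log2 -0.63 ± 0.14) and Gss (log2 -0.79 ± 0.16) fell, and Acsl4, which readies polyunsaturated fatty acids for membranes, rose by 1.16 ± 0.14 (authors' deposited table). The list medians in culture ranged from -0.06 for regulators to -0.86 for storage and export, against 0.01 over all tested genes. With a scaling by library size alone, the calls over all genes in culture went from 2336 higher and 2667 lower to 3054 higher and 2296 lower, and the 6 falls among the 10 iron genes kept their calls.

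**Figure D4:**
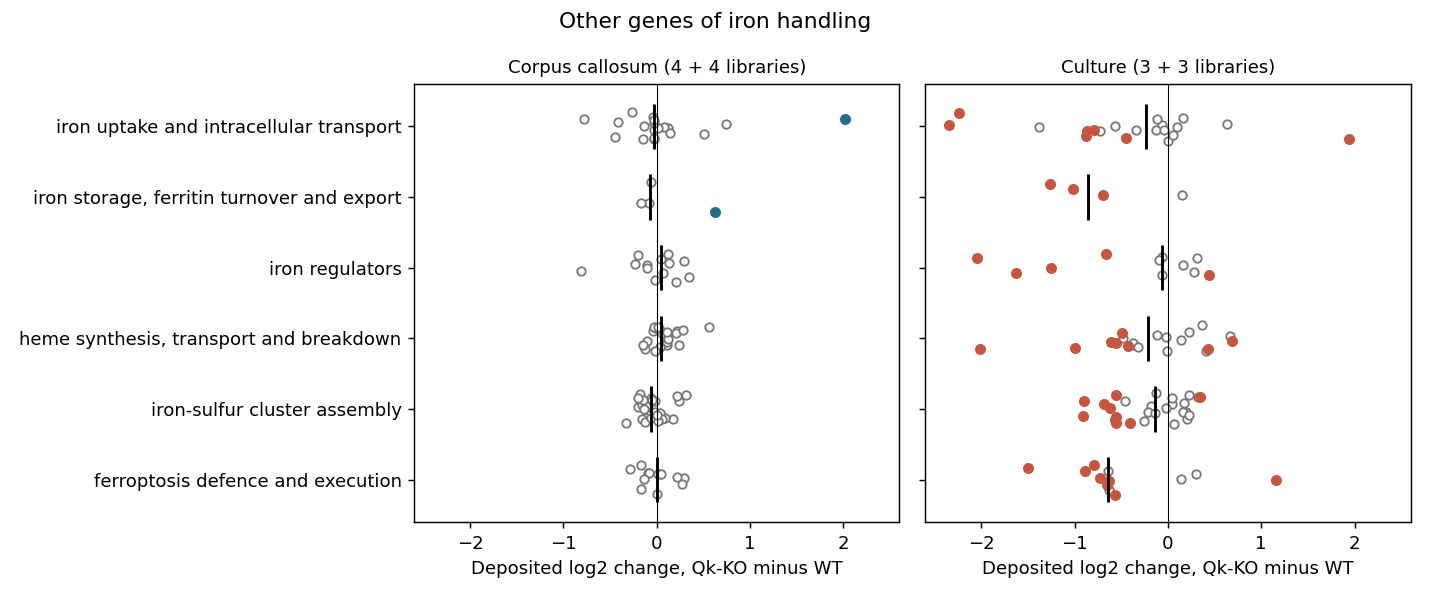
Deposited log2 change, Qk-KO minus WT, of each tested gene in 6 further lists of iron handling; filled points passed an adjusted p under 0.05, open points did not, and black bars mark list medians. In callosum 2 of 96 points are filled, and in culture 41 of 94 are filled, 35 of them left of 0.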

How the data were processed

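Per the submitters' processing notes, the tools were TopHat2 2.0.14, FastQC, DESeq2 and featureCounts, on mm10. No source used here gives the annotation, the strand setting or the model, or says whether the changes were shrunken toward 0. In culture, Itgax had a log2 change of 0.14 ± 0.32 at a mean normalized count of 0.170, a small error for so few reads. Folds, intervals and differences between the systems may thus be drawn toward 0, above all at low counts. The library columns hold log2 values (fitted count plus 1) that the authors deposited. Within a genotype the libraries differ by 1 constant factor at every gene, within 1e-09 log2 units, so they carry no replicate spread, and no count test was run. The mean column, per the file headers, is a normalized signal (counts over size factors). The deposited log2 change and standard error, score (change over error) and p-value columns come from the authors' DESeq2 comparison, and signs were turned to Qk-KO minus WT. Calls use the deposited Benjamini-Hochberg adjusted p under 0.05, without a minimum fold.

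Computed here (Python 3.11.15, pandas 2.3.3, scipy 1.17.1) were fitted CPM, 95% normal intervals and a two-sided z test between systems, tested on simulated data. Lengths, hairpin searches and coordinates come from GENCODE M21, which holds 46488 of the 46983 identifiers. The members and lists were chosen with earlier results of these data known. All 10 members are named, and from each further list up to 3 called genes per direction with the smallest adjusted p and at least 1 CPM. Alternatives were library-size scaling, median centring, no low-mean filter, a mean of at least 50, a t reference distribution and a 1.5-fold minimum.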

Additional observations from a re-analysis of the deposited data

Results flagged for a closer look

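The change from WT to Qk-KO differed between culture and callosum, by the z test on both tables, for 6 of the 10 iron genes. The culture minus callosum difference was -1.52 for Fth1, -1.42 for Ftl1, -1.16 for Heph, -1.08 for Slc40a1, -0.61 for Tfrc and -0.52 for Aco1, in log2 units. Only for Fth1 and Ftl1 among these do the 95% intervals of both systems lie on opposite sides of 0.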

How the results depend on the processing

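Of 178 values of the 10 genes under 6 alternatives, 160 kept their direction and their side of the threshold, 15 lost a call and 3, all for Fth1 in callosum, gained one; none changed sign. With the t reference distribution, the count of higher genes in callosum went from 2 to 0 (3 higher at an unadjusted p under 0.05), that of lower genes in culture from 6 to 0 (6 at an unadjusted p under 0.05), and that of genes lower in culture than in callosum from 6 to 3. Over all genes, 8 passed in callosum and 0 in culture with that reference, and 1970 of 16601 in the difference, 1195 of them lower. With a 1.5-fold minimum, 1 gene (Trf) was higher in callosum, 4 were lower in culture (without Tfrc and Aco1) and 5 were lower in the difference (without Aco1). No paired analysis was possible because the library columns hold fitted means without replicate spread, and for the same reason leaving out a library and a second count tool were not run.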
